A study of Mus musculus with 3 samples.

Results

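Blood vessel endothelial cells line the arteries, capillaries and veins of the lung. They were taken here from 3 droplet single-cell RNA libraries of mouse lung. A barcode counted as such a cell when it held at least 5 unique molecular identifiers (UMIs) over Cdh5, Clec14a, Ptprb, Plvap, Gpihbp1, Tspan7 and Ramp2, with at least 3 of these 7 genes detected. It also had 0 UMIs of Ptprc, the pan-leukocyte gene, and at most 1 UMI over the lymphatic genes Prox1, Mmrn1 and Ccl21a. The cells were thus chosen by their own counts, and the levels of the choosing genes are a description. Of 6458 kept barcodes (at least 200 genes and at most 10% mitochondrial UMIs), 249 passed: 89 in the FLASH library, 75 in the CONV library and 85 in the Control library.

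The study set lungs irradiated at ultra-high dose rate (FLASH) and at conventional dose rate (CONV) beside non-irradiated lungs (Control), with 1 library per group. All animals were C57BL/6 females of 10 to 12 weeks. The FLASH and CONV groups received 17 Gy to the thorax from a 4.5 MeV electron accelerator under isoflurane, in FLASH or CONV mode, and the Control group was not irradiated. Lungs were digested with enzymes, strained at 100 and 40 µm, cleared of red cells by lysis, and the cells were captured with 10x Genomics 3′ version 2 reagents. How many mice went into a library, and how long after irradiation lungs were taken, is not given in the sources used here. With 1 library per group no difference has a replicate check, so no p-value is given and differences are described as higher or lower.

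The pulmonary capillary bed is built from general capillary cells, which carry GPIHBP1 and lipoprotein lipase and act as its progenitors, and from aerocytes, large flat CAR4-positive cells specialised for gas exchange. Arterial cells express gap junction genes and Notch ligands, and venous cells express von Willebrand factor and the adhesion molecule VCAM1. Endothelium also presents antigen, and after ionising radiation p53 induces genes of cell cycle arrest and apoptosis in it.

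The label held against genes that the choice did not use. Over Pecam1, Tie1, Cldn5, Egfl7, Esam, Eng and Emcn, all endothelial surface or junction genes, the summed level was 7908 CPM (UMIs of the genes per 1000000 UMIs of the same cells) in FLASH cells, 7393 CPM in CONV cells and 11231 CPM in Control cells. The remaining kept barcodes held 190 CPM in FLASH, 138 CPM in CONV and 150 CPM in Control. The genes that stood highest over the remaining barcodes were Cytl1 (151-fold), Cyyr1 (132-fold), the transcriptional repressor Ripply3 (131-fold), the adhesion receptor Adgrl4 (124-fold), Grrp1 (121-fold), Tmem252 (111-fold) and the transcription factors Sox18 (110.0-fold) and Sox17 (109-fold), all described over the 3 libraries together. At the threshold itself, 3 FLASH, 5 CONV and 0 Control cells held exactly 5 UMIs of the choosing genes, and 6 FLASH, 1 CONV and 0 Control barcodes stayed outside with 4. The median over the cells was 13 such UMIs in FLASH, 14 in CONV and 31 in Control, so a threshold in UMIs was nearer to the typical FLASH and CONV cell.

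The cells held 154786 UMIs in FLASH, 167717 in CONV and 240399 in Control. The median cell had 1401 UMIs in FLASH, 1790 in CONV and 2094 in Control, and 1 UMI was worth 6.46 CPM in FLASH, 5.96 CPM in CONV and 4.16 CPM in Control. No barcode was shared between libraries among these cells, and 5 to 7 were shared per pair of libraries over all barcodes in the files. UMI levels are given in CPM with exact Poisson intervals, shares with Clopper-Pearson intervals, and ratios with exact conditional binomial intervals, in brackets after the value. All are at 95% and cover counting error only.

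Transcripts of other cell types were present among these cells and differed between libraries. The 12 alveolar type 2 markers summed to 14517 CPM in FLASH, 27075 CPM in CONV and 12259 CPM in Control cells, and a single cell held 50.1% of this in FLASH, 47.4% in CONV and 90.2% in Control. The 15 macrophage and monocyte markers summed to 2545 CPM in FLASH, 4794 CPM in CONV and 1210 CPM in Control cells, with 6 of the markers at 0 in FLASH, 3 in CONV and 6 in Control. Haemoglobin genes summed to 4012 CPM in FLASH, 960.0 CPM in CONV and 54.1 CPM in Control cells, and 1 cell held 92.4% of them in FLASH and 83.2% in CONV. Neutrophil genes summed to 840 CPM in FLASH, 286 CPM in CONV and 83.2 CPM in Control cells. The 12 lymphatic markers summed to 1725 CPM in FLASH, 2051 CPM in CONV and 911 CPM in Control cells, and Lyve1 made up most of this. Fibroblast and smooth muscle genes were at 724 CPM in FLASH, 847 CPM in CONV and 932 CPM in Control cells. The part of these transcripts in the results was not tested beyond the values given with such cells left out.

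Endothelial cells were a smaller share of both irradiated suspensions, although over all kept barcodes the interval of the FLASH difference holds 0. They made up 3.88% (3.12 to 4.75) of kept barcodes in FLASH, 3.08% (2.43 to 3.85) in CONV and 4.92% (3.95 to 6.05) in Control. The difference was -1.04 points (-2.37 to 0.226) for FLASH minus Control, -1.84 points (-3.12 to -0.639) for CONV minus Control and 0.795 points (-0.252 to 1.86) for FLASH minus CONV. Among barcodes without Ptprc, which leaves out most leukocytes, the share was 5.46% (4.40 to 6.67) in FLASH, 4.46% (3.53 to 5.56) in CONV and 9.71% (7.83 to 11.9) in Control. There the difference was -4.26 points (-6.62 to -2.10) for FLASH minus Control and -5.25 points (-7.57 to -3.15) for CONV minus Control. It was 0.995 points (-0.489 to 2.5) for FLASH minus CONV, an interval that holds 0. With each barcode thinned to 1000 UMIs before the choice, the share of kept barcodes was 3.19% in FLASH, 2.38% in CONV and 4.51% in Control. The median kept barcode held 1804 UMIs in FLASH, 2364.5 in CONV and 2962.5 in Control. A leukocyte of low depth can show 0 Ptprc UMIs, and the share among barcodes without Ptprc was not recomputed after thinning. The part of depth in that share, and of dissociation and loading in all of these shares, was not tested.

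Sub-clustering separated capillary, venous and arterial cells. A cluster carried 15 of 15 aerocyte markers, led by Fibin, Car4, Emp2, Ednrb, Chst1 and Tbx2. General capillary-like cells came from 2 clusters, the first led by Lpl, Sema3c, Wfdc1 and Kit and the second by the stress-linked early genes Atf3, Fosb, Btg2, Junb and Ier2. Venous-like cells came from 2 clusters, the first led by Slc6a2, Amigo2, Bst1 and Prss23 and the second by Ptgs2, Selp and Vcam1. A cluster with Gja5, Gja4, Bmx, Hey1, Dll4 and Efnb2 was arterial-like. The other 4 clusters held 32 FLASH, 26 CONV and 14 Control cells. They stayed unnamed, because haemoglobin, leukocyte, fibroblast or alveolar type 2 genes led them. Of these, the cluster led by haemoglobin genes also carried 9 of 15 arterial markers, among them Gja5, Gja4 and Bmx. It held 8 FLASH, 9 CONV and 9 Control cells. The named arterial-like cluster, also with 9 of 15, held 11 FLASH, 7 CONV and 1 Control cells.

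**Figure D1:**
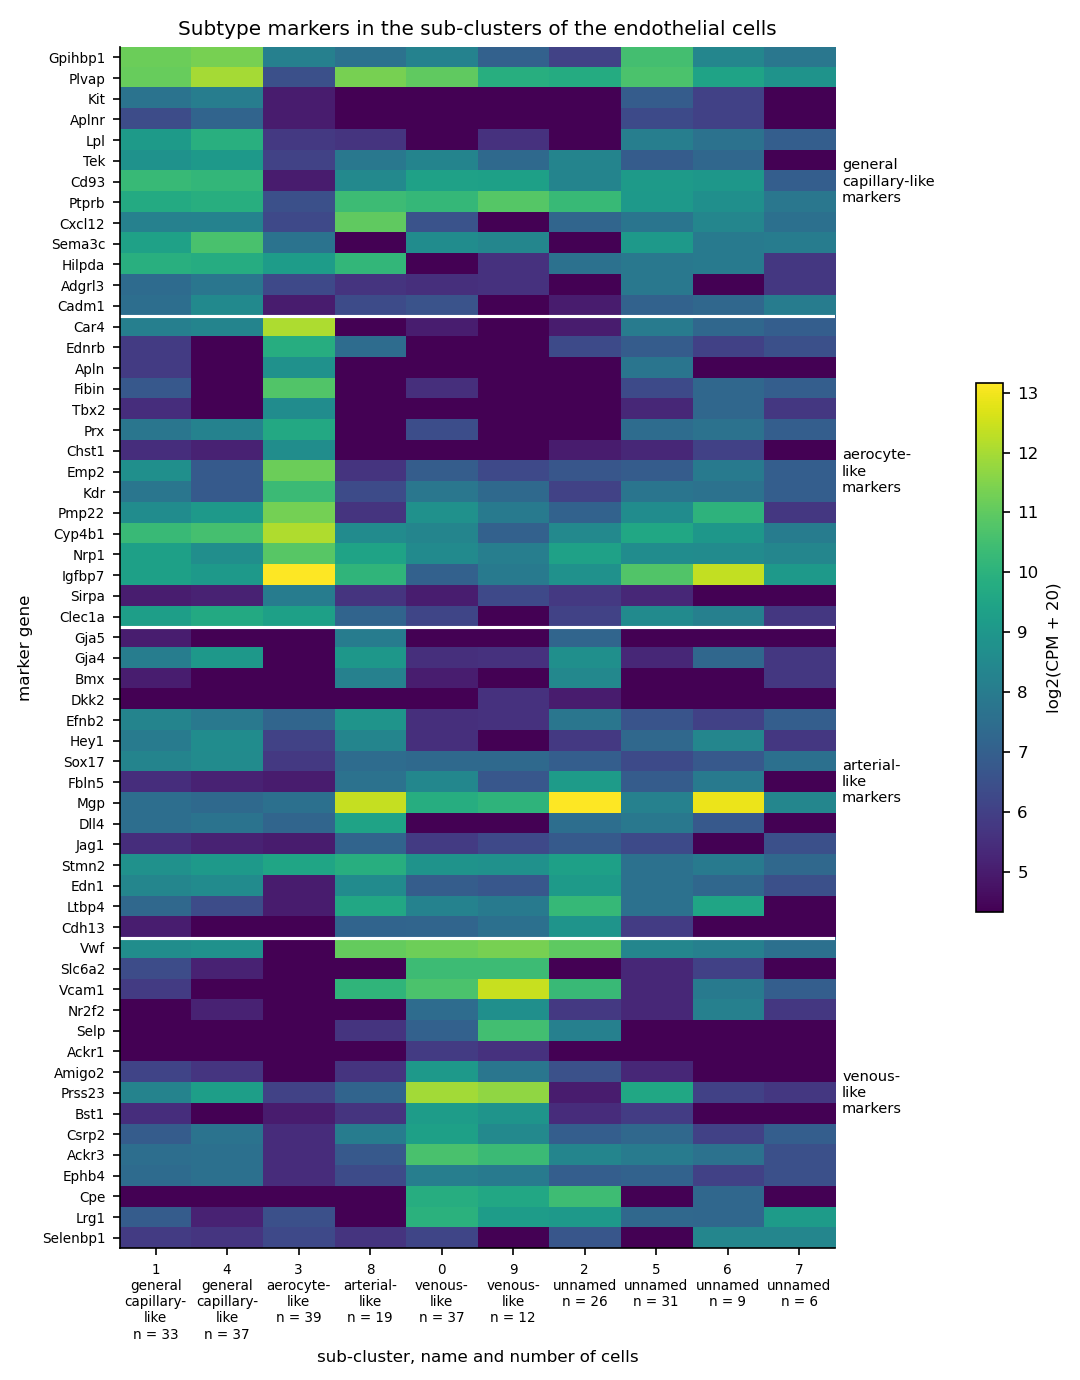
Level of each subtype marker (rows, grouped by list) in the 10 sub-clusters of the endothelial cells (columns), as log2(CPM + 20) over the cells of the 3 libraries. All 15 aerocyte markers were at least 2 times as high in the same cluster as in the other cells. Markers of the other lists were less confined. The arterial marker Gja4, for example, had 502 CPM in a general capillary-like cluster and 491 CPM in the arterial-like cluster.

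Venous markers were held by a larger share of cells in both irradiated libraries, although the FLASH and Control intervals overlapped. General capillary markers were held by a smaller share of CONV cells. The list of 13 held Gpihbp1, Plvap and Ptprb, which chose the cells, and these 3 were left out. Of the 10 left, Cxcl12 had 2023 CPM in the arterial-like cluster, against 275 and 283 CPM in the general capillary-like clusters. Hilpda had 1134 CPM there, against 926 and 879 CPM. The remaining markers stood higher in the general capillary-like clusters than in the arterial-like cluster. The part of arterial-like cells in the shares was not tested. After thinning to 1000 UMIs, at least 3 UMIs of the other 10 general capillary markers were held by 44.9% (34.4 to 55.9) of FLASH, 21.3% (12.7 to 32.3) of CONV and 56.5% (45.3 to 67.2) of Control cells. The CONV interval lay below the other two, while those of FLASH and Control overlapped. The same was true of 4.96% of FLASH, 5.67% of CONV and 5.81% of Control barcodes marked as fibroblasts, a cell type that should lack most of these genes. These were non-endothelial barcodes with 0 Ptprc UMIs, at least 5 UMIs over Col1a1, Col1a2, Col3a1, Dcn, Pdgfra and Mfap4 and at least 3 of these genes detected. At least 3 UMIs of the 15 venous markers were held by 44.9% (34.4 to 55.9) of FLASH, 54.7% (42.7 to 66.2) of CONV and 28.2% (19.0 to 39.0) of Control cells. Fibroblast-marked barcodes stood at 23.5% in FLASH, 25.8% in CONV and 31.6% in Control. The endothelial share was above that of fibroblast-marked barcodes in FLASH and CONV, and in Control its interval held it. Which of the 15 venous markers fibroblasts express themselves was not tested, so their share is not a pure background. Without thinning, the share for the 10 general capillary markers was 59.6% in FLASH, 50.7% in CONV and 83.5% in Control, and the venous share 55.1% in FLASH, 65.3% in CONV and 50.6% in Control. The median depth behind the fibroblast-marked values was 1726 UMIs in FLASH, 2284.5 in CONV and 3348 in Control.

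The aerocyte and arterial lists were no guide in this form, since at least 3 of their UMIs were held by 83.0% to 87.5% and 95.5% to 97.9% of fibroblast-marked barcodes over the 3 libraries. As summed levels over all endothelial cells, the aerocyte list stood at 5485 CPM in FLASH, 5623 CPM in CONV and 10220 CPM in Control, and the 10 general capillary markers at 2255 CPM in FLASH, 1431 CPM in CONV and 3361 CPM in Control. The arterial list stood at 5336 CPM in FLASH, 4991 CPM in CONV and 3898 CPM in Control, and the venous list at 5511 CPM in FLASH, 6893 CPM in CONV and 3594 CPM in Control. Summed capillary markers were thus lower and summed venous markers higher in both irradiated libraries. Of 12 measured venous markers 8 stood above and 4 below Control in FLASH (median log2 ratio 0.46) and 11 above and 1 below in CONV (median 0.84). The arterial sum and the list differed, since 7 of 11 measured arterial markers were above Control in FLASH (median 0.15) and 5 of 11 in CONV (median -0.43, with 3 lower and 0 higher past 2-fold). A gene that differs between subtypes can therefore differ between libraries with no difference inside any subtype, and values within the subtypes are given below beside the pooled ones. They rest on 10 FLASH, 14 CONV and 15 Control aerocyte-like cells, on 18 FLASH, 4 CONV and 48 Control general capillary-like cells and on 18 FLASH, 24 CONV and 7 Control venous-like cells. Genes that led a cluster, such as Car4, Lpl, Vcam1, Prss23 or Ier2, helped to place these cells, so their levels inside their own subtype are a description.

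**Figure D2:**
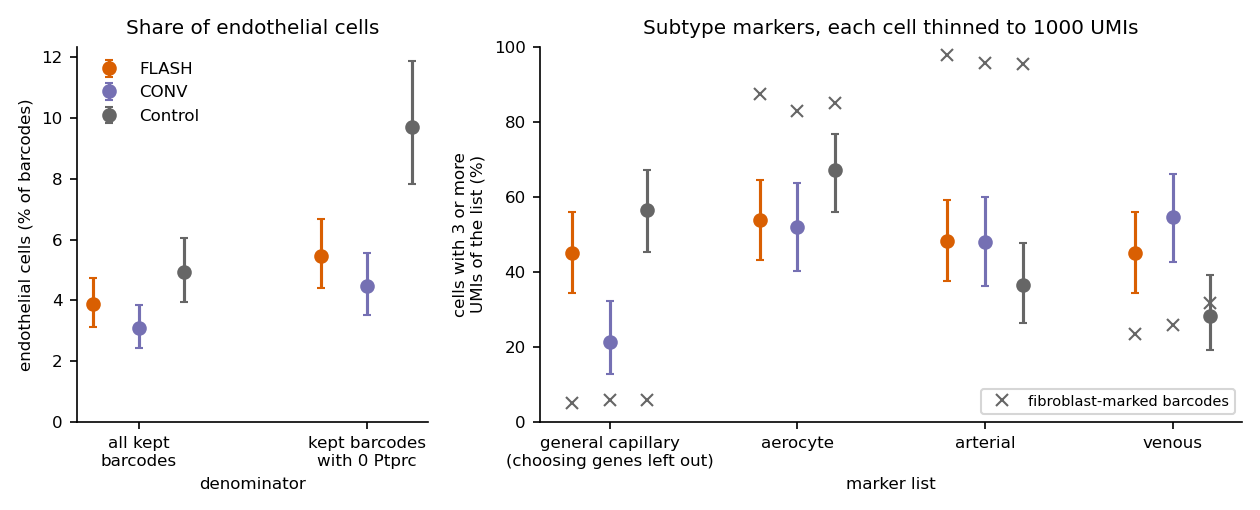
Left, endothelial cells as a percentage of all kept barcodes and of those with 0 Ptprc UMIs in FLASH, CONV and Control (points, with 95% Clopper-Pearson bars). Right, percentage of endothelial cells with 3 or more UMIs of each subtype list after thinning to 1000 UMIs, with crosses for fibroblast-marked barcodes. The general capillary list is drawn without its 3 choosing genes. Its CONV point (21.3%) lies below FLASH (44.9%) and Control (56.5%), and the aerocyte and arterial lists lie below the crosses.

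Against Control, the cells of both irradiated libraries carried more transcripts of p53 targets and fewer of antigen presentation genes. The cell cycle inhibitor Cdkn1a was 2.59 times as high in FLASH and 2.16 times as high in CONV cells, and the MHC class II chaperone Cd74 was at 0.282 of its Control level in FLASH and at 0.16 in CONV cells. Of 2002 genes with at least 50 UMIs over the 3 libraries, 80 (4.0%) were at least 2 times as high and 114 (5.69%) at most 0.5 times as high in FLASH as in Control cells. In CONV cells, 93 (4.65%) were that much higher and 124 (6.19%) that much lower than in Control cells. The median log2 ratio over all genes was -0.04 in both comparisons. The 2 comparisons share the Control library, so their likeness is no independent evidence.

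Among p53 targets, which include cell cycle inhibitors and death effectors, 7 of 11 measured genes were more than 2-fold higher and 1 lower in FLASH than in Control cells, with a median log2 ratio of 1.33. In CONV cells 6 of 11 were higher and 0 lower, with a median of 1.11. Both shares of higher genes stand above the backgrounds of 4.0% and 4.65%. Cdkn1a, which encodes the cyclin-dependent kinase inhibitor p21, lies at chr17:29090976-29100727 (GRCm38). It had 2416 CPM (2178 to 2674) in FLASH cells, 2009 CPM (1801 to 2236) in CONV cells and 932 CPM (814 to 1062) in Control cells. Its ratio was 2.59 (2.19 to 3.07) for FLASH over Control and 2.16 (1.82 to 2.56) for CONV over Control. Neither irradiated interval overlapped that of Control. Fibroblast-marked barcodes were lower in Cdkn1a, at 725 CPM in FLASH, 655 CPM in CONV and 193 CPM in Control, and their own ratios to Control were 3.76 (3.06 to 4.66) in FLASH and 3.4 (2.78 to 4.19) in CONV.

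Because Cdkn1a led the p53 list in level, the 250 bases before its 5′ start were read for a pair of CATG cores, letters found at the centre of p53 response elements (CATGNNNNNNCATG, searched on both strands, in capitals). The sequence is from RefSeq on GRCm38.p6, at chr17:29090729-29090978 on the plus strand. The pair begins 48 bases before the start used, which lies at the 5′ end of the GENCODE span. Only a window with a match was printed, so a window of any other Cdkn1a start without the pair would not show here.
Cdkn1a: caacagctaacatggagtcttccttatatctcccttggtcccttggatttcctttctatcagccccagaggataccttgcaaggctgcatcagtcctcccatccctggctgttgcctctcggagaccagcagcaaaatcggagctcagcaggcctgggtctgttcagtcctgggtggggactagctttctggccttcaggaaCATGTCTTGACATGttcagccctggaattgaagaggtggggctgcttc
Of 32851 windows of this length in the RefSeq table, 161 (0.49%) held the pair. Counted per gene, with a match in any window, Cdkn1a was the 1 of 29 p53 targets with a window that did. A match is a description of the letters and shows no binding.

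Phlda3, a p53-induced inhibitor of Akt signalling at chr1:135766119-135769136, had 833 CPM (696 to 990.3) in FLASH cells, 876 CPM (741 to 1030.2) in CONV cells and 229 CPM (172 to 298) in Control cells. The ratio was 3.64 (2.64 to 5.09) in FLASH and 3.83 (2.79 to 5.32) in CONV. Bax, which permeabilises mitochondria in apoptosis, had 775 CPM in FLASH, 674 CPM in CONV and 308 CPM in Control cells, ratios of 2.52 (1.87 to 3.41) in FLASH and 2.19 (1.62 to 2.98) in CONV. Both genes thus stood above their Control intervals in either irradiated library. Rps27l, a ribosomal protein S27 paralogue induced by p53, had 1021 CPM in FLASH, 966 CPM in CONV and 408 CPM in Control cells, ratios of 2.5 (1.93 to 3.26) in FLASH and 2.37 (1.83 to 3.08) in CONV. Its reads could be shared with Rps27, so its level is uncertain. Inside aerocyte-like cells the Rps27l ratio was 2.31 (1.12 to 4.62) in FLASH and 1.99 (1.06 to 3.74) in CONV, and the 2-fold call in CONV also ended in general capillary-like cells (1.54, 0.402 to 4.22) and with the 3 subtypes at equal weight (log2 ratio 0.95). Inside aerocyte-like cells the Bax ratio was 1.46 (0.681 to 2.96) in FLASH, an interval that holds 1, and 2.01 (1.15 to 3.51) in CONV.

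Gdf15, a secreted stress cytokine, was the gene that ranked highest in both comparisons. It had 30 UMIs in FLASH cells, 48 in CONV cells and 0 in Control cells, that is 194 CPM in FLASH and 286 CPM in CONV. Set against a floor of 3 UMIs over the Control cells, it was at least 15.5-fold higher in FLASH and at least 22.9-fold higher in CONV. Of these UMIs, 17 in FLASH and 37 in CONV lay in aerocyte-like cells, at 1225 CPM in FLASH and 1572 CPM in CONV, against 0 UMIs in Control aerocyte-like cells. Dcxr, a carbonyl reductase, was 3.88 (1.64 to 10.2) times as high in FLASH and 6.09 (2.77 to 15.2) times in CONV cells as in Control cells. Ei24, an endoplasmic reticulum protein, was 4.18 (2.16 to 8.61) times as high in FLASH cells and 1.98 (0.919 to 4.41) times in CONV cells.

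Not all p53 targets stood higher. The death receptor Fas had 149 CPM in FLASH, 209 CPM in CONV and 395 CPM in Control cells, ratios of 0.376 (0.227 to 0.598) in FLASH and 0.528 (0.348 to 0.786) in CONV. The antiproliferative gene Btg2, also an immediate early gene, was at 0.570 (0.438 to 0.737) of Control in FLASH and 0.545 (0.420 to 0.702) in CONV. Plk2, a polo-like kinase, and Ninj1, a membrane adhesion protein, had log2 ratios to Control of 0.00 and 0.08 in FLASH and of -0.61 and 0.46 in CONV cells. These 4 were the measured p53 targets that were past 2-fold higher in neither library.

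Within the subtypes Cdkn1a stood at different heights. In aerocyte-like cells it had 5551 CPM (4381 to 6937) in FLASH, 6626 CPM (5627 to 7751) in CONV and 1915 CPM (1547 to 2343) in Control, ratios of 2.90 (2.12 to 3.96) in FLASH and 3.46 (2.66 to 4.52) in CONV. Per cell, its UMIs per 10000 ran between 7.5 and 135.6 (median 32.7) in FLASH aerocyte-like cells, between 6.4 and 122.0 (median 65.9) in CONV and between 3.1 and 36.6 (median 16.3) in Control. In venous-like cells it had 1682 CPM (1289.9 to 2157) in FLASH, 1436 CPM (1141 to 1785) in CONV and 404 CPM (174 to 796) in Control, ratios of 4.17 (1.99 to 10.1) in FLASH and 3.56 (1.72 to 8.52) in CONV. The order of subtypes, aerocyte-like over venous-like, was thus the same in all 3 libraries. In general capillary-like cells Cdkn1a had 4665 CPM (3854 to 5595) in FLASH, 1232 CPM (532 to 2428) in CONV and 998 CPM (821 to 1200.3) in Control. There the ratio to Control was 4.68 (3.58 to 6.12) in FLASH and 1.24 (0.521 to 2.52) in CONV, whose value rests on 8 UMIs in 4 cells.

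In the general capillary-like class the clusters behind the cells also differed, since 11 of the 18 FLASH cells, 1 of the 4 CONV cells and 21 of the 48 Control cells came from the cluster led by early genes. Phlda3 in these cells was 8.06 (4.03 to 16.8) times as high in FLASH and 8.65 (2.95 to 22.9) times as high in CONV as in Control cells. In aerocyte-like cells its ratio was 5.01 (2.89 to 8.84) in FLASH and 4.43 (2.68 to 7.53) in CONV. In venous-like cells it was 1.68 (0.734 to 4.31) in FLASH and 1.76 (0.811 to 4.34) in CONV, intervals that hold 1. Pooled Cdkn1a in CONV over Control came to a log2 ratio of 0.67 when the choice asked for 8 UMIs over 4 genes, and to 0.91 with 3 UMIs over 2 genes, both under 2-fold.

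**Figure D3:**
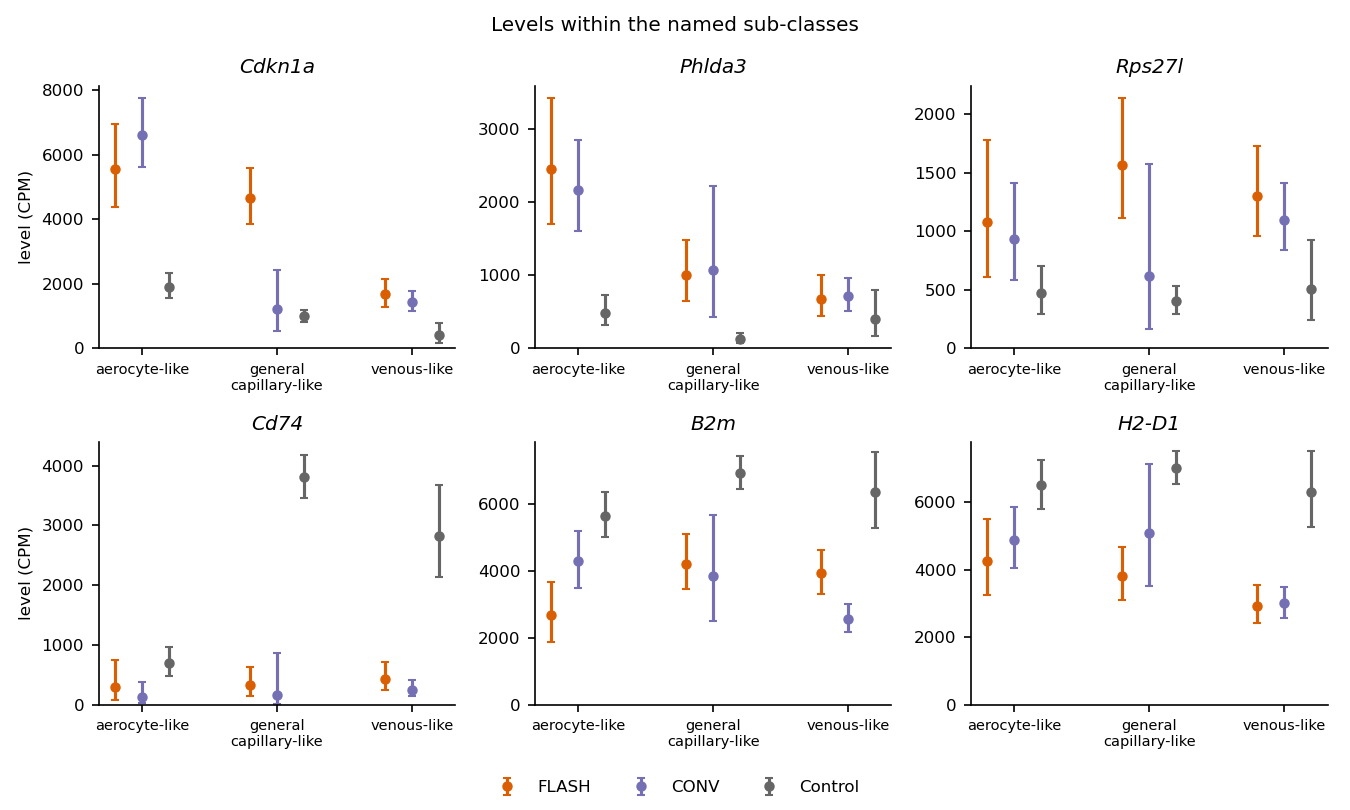
CPM of Cdkn1a, Phlda3, Rps27l, Cd74, B2m and H2-D1 within aerocyte-like, general capillary-like and venous-like cells of FLASH, CONV and Control, with 95% Poisson bars. Cdkn1a in aerocyte-like cells was at 5551 CPM in FLASH and 6626 CPM in CONV, against 1915 CPM in Control, and Cd74 in general capillary-like cells was at 322 CPM in FLASH and 154 CPM in CONV, against 3803 CPM in Control.

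Genes of the MHC class II pathway, which loads peptides for CD4 T cells, were lower in both irradiated libraries. All 4 measured genes were more than 2-fold lower in FLASH (median log2 ratio -1.49) and in CONV cells (median -2.30) than in Control cells, beside backgrounds of 5.69% and 6.19%. Cd74, the invariant chain, had 691 CPM (567 to 835) in FLASH cells, 394 CPM (304 to 501) in CONV cells and 2454 CPM (2260.2 to 2661) in Control cells. Its ratio was 0.282 (0.227 to 0.347) in FLASH and 0.16 (0.122 to 0.207) in CONV. In FLASH cells 1 cell held 41 of its 107 UMIs and in CONV cells 1 cell held 22 of 66, so the level of the other irradiated cells was lower still. In fibroblast-marked barcodes, which should lack it, Cd74 had 419 CPM in FLASH, 533 CPM in CONV and 359 CPM in Control, so the CONV endothelial level was at or under that background. The 6 B cell markers found in the files summed to 194 CPM in FLASH, 83.5 CPM in CONV and 154 CPM in Control endothelial cells, with 2 at 0 in FLASH, 2 in CONV and 0 in Control. The 8 dendritic cell markers summed to 38.8 CPM in FLASH, 23.8 CPM in CONV and 29.1 CPM in Control, with 5 at 0 in FLASH, 7 in CONV and 6 in Control. Their part in the class II result was not tested.

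The peptide-binding chains behaved alike. H2-Aa had 226 CPM (158 to 314) in FLASH, 203 CPM (140.4 to 283) in CONV and 611 CPM (517 to 719) in Control cells, ratios of 0.370 (0.248 to 0.538) in FLASH and 0.332 (0.221 to 0.484) in CONV. H2-Ab1 had 246 CPM in FLASH, 185 CPM in CONV and 719.6 CPM in Control cells, ratios of 0.341 (0.234 to 0.487) in FLASH and 0.257 (0.169 to 0.378) in CONV. H2-Eb1 had 162 CPM in FLASH, 59.6 CPM in CONV and 420.1 CPM in Control cells, ratios of 0.384 (0.238 to 0.60) in FLASH and 0.142 (0.0661 to 0.272) in CONV. For all 3 the Control interval lay above both irradiated intervals. Fibroblast-marked barcodes had 85.8 CPM of H2-Aa in FLASH, 153 CPM in CONV and 112 CPM in Control.

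The difference lay inside the subtypes as well. In general capillary-like cells Cd74 had 322 CPM (139 to 634) in FLASH, 154 CPM (3.90 to 858) in CONV and 3803 CPM (3451 to 4182) in Control, ratios of 0.0846 (0.0363 to 0.168) in FLASH and 0.0405 (0.00102 to 0.227) in CONV. Its UMIs per 10000 had a median of 0 and a highest value of 16.5 over the 18 FLASH cells, a median of 0 and a highest value of 6.9 over the 4 CONV cells, and a median of 28.5 and a highest value of 184.7 over the 48 Control cells. H2-Ab1 in the same cells had 4 UMIs in FLASH, 0 in CONV and 140 in Control. In venous-like cells Cd74 had 434 CPM (248 to 705) in FLASH, 248 CPM (136 to 417) in CONV and 2827 CPM (2135 to 3671) in Control, ratios of 0.154 (0.0822 to 0.272) in FLASH and 0.0878 (0.0451 to 0.16) in CONV. Aerocyte-like cells were lower in Cd74, with 288 CPM in FLASH, 127 CPM in CONV and 693 CPM in Control.

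MHC class I genes, which present to CD8 T cells, were lower to a smaller degree. Of 13 measured genes of class I and its peptide supply, 3 were more than 2-fold lower and 0 higher in FLASH (median log2 ratio -0.74), and likewise 3 and 0 in CONV cells (median -0.78), and all 13 had a ratio under 1 in both. The 3 were H2-D1, H2-Q7 and the immunoproteasome subunit Psmb9 in FLASH and B2m, H2-Q6 and H2-Q7 in CONV cells, of which H2-Q6, H2-Q7 and Psmb9 were named after their values were seen. B2m, the light chain shared by class I molecules (chr2:122147686-122153083), had 3463 CPM (3176 to 3769) in FLASH, 2623 CPM (2384 to 2880.4) in CONV and 5736 CPM (5438 to 6047) in Control cells, ratios of 0.604 (0.545 to 0.667) in FLASH and 0.457 (0.410 to 0.510) in CONV. H2-D1, a heavy chain at chr17:35262730-35267499, had 2907 CPM (2645 to 3189) in FLASH, 3106 CPM (2845 to 3385) in CONV and 5982 CPM (5677 to 6299) in Control cells, ratios of 0.486 (0.436 to 0.541) in FLASH and 0.519 (0.469 to 0.574) in CONV. Class I heavy chain genes resemble each other, and reads could be split between H2-D1, H2-K1 and the H2-Q genes. H2-K1 had ratios of 0.599 (0.505 to 0.707) in FLASH and 0.516 (0.433 to 0.612) in CONV. In fibroblast-marked barcodes B2m was at 0.935 (0.864 to 1.01) of Control in FLASH and 0.866 (0.805 to 0.931) in CONV.

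Within venous-like cells B2m had 3935 CPM in FLASH, 2571 CPM in CONV and 6361 CPM in Control, and H2-D1 had 2931 CPM in FLASH, 2997 CPM in CONV and 6310.3 CPM in Control. In general capillary-like cells B2m had 4222 CPM in FLASH, 3851 CPM in CONV and 6938 CPM in Control. In aerocyte-like cells B2m had 2667 CPM in FLASH, 4289.8 CPM in CONV and 5662 CPM in Control. The Control level was the highest in each of these 3 subtypes. For H2-D1 the 2-fold call in FLASH did not hold within the general capillary-like class (log2 ratio -0.88), in aerocyte-like cells (-0.61) or with the 3 subtypes at equal weight (-0.85). The B2m call in CONV was lost in the same settings, at -0.85 in general capillary-like cells, -0.40 in aerocyte-like cells and -0.82 at equal weight.

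Promoters of class I and class II genes are known to share a Y box, an inverted CCAAT element (CTGATTGG, searched on both strands). It was present once in the 250 bases before the start of H2-Aa (chr17:34287824-34288073, minus strand), H2-Eb1 (chr17:34305617-34305866, plus strand) and H2-D1 (chr17:35262844-35263093, plus strand), in RefSeq sequence on GRCm38.p6. These 3 windows are printed as examples that hold the box, of genes that stood lower in both irradiated libraries, with the box in capitals. H2-Q6, H2-Q7, H2-T23 and Psmb9, also lower in both, held it too and are not printed. Cd74, H2-Ab1 and B2m, also lower in both, were not among the genes in which the box was found. In H2-D1 it lies on the opposite strand and reads CCAATCAG, and the RefSeq start used lies inside the GENCODE span of the gene.
H2-Aa: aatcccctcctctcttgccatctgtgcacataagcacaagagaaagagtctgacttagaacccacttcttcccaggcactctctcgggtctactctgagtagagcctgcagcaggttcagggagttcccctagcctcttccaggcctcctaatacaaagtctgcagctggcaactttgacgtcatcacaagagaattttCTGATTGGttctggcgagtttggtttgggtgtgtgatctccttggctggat
H2-Eb1: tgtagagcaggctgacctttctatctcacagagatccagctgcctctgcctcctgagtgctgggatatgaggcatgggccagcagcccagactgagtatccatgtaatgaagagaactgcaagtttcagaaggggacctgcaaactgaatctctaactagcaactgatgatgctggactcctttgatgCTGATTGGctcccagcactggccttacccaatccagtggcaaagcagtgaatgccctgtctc
H2-D1: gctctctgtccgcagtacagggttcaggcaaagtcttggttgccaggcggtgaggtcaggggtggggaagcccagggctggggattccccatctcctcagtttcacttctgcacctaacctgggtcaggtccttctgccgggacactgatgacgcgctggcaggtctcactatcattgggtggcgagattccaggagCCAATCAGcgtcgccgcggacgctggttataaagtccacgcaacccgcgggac
The box begins 51 bases before the start of H2-Aa, 62 before that of H2-Eb1 and 53 before that of H2-D1. It was found in 1258 of 32851 windows (3.83%). Counted per gene, with a match in any window, it was found in 3 of 7 class II genes with a window and in 6 of 15 class I genes. A gene with several windows has more chances of a match, so these counts and the share of windows are unlike measures. The presence of the box says nothing here about which factor was bound.

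**Figure D4:**
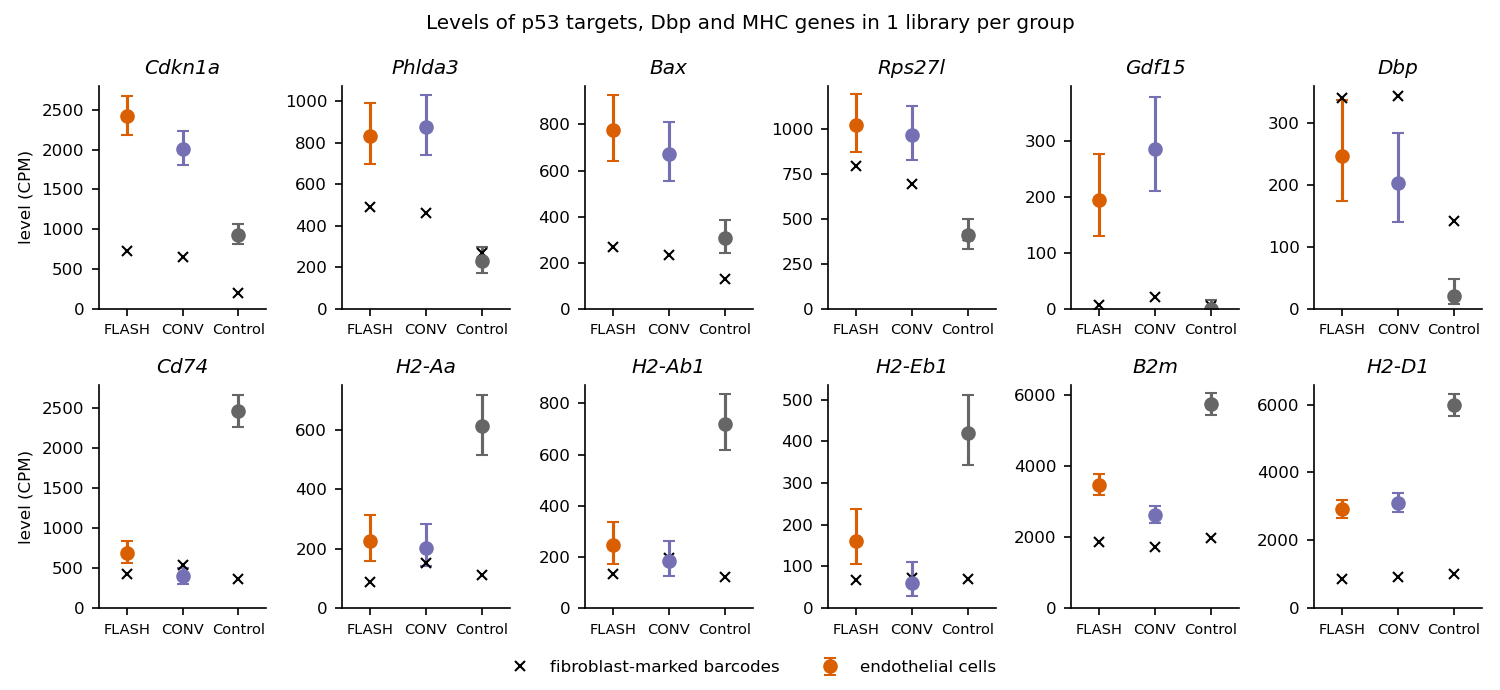
CPM in endothelial cells of FLASH, CONV and Control (points, with 95% Poisson bars) for p53 targets, Dbp and antigen presentation genes, with crosses for fibroblast-marked barcodes of the same library. The FLASH and CONV points lie above Control for Cdkn1a, Phlda3, Bax, Rps27l, Gdf15 and Dbp and below it for Cd74, H2-Aa, H2-Ab1, H2-Eb1, B2m and H2-D1.

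Interferon-stimulated genes, which often move with class I genes, had medians closer to 0. Of 15 measured genes, 3 were more than 2-fold lower and 0 higher in FLASH (median log2 ratio -0.31), and 3 were lower and 0 higher in CONV cells (median -0.64). They were Gbp2, Rtp4 and Lgals3bp in FLASH and Isg15, Xaf1 and Rtp4 in CONV cells, named after their values were seen. The membrane restriction factors Ifitm3 and Ifitm2 had ratios of 1.07 (0.957 to 1.20) and 1.09 in FLASH and of 0.925 (0.823 to 1.04) and 1.09 in CONV. Ly6e, a surface protein, was at 0.728 (0.639 to 0.828) of Control in FLASH and 0.643 (0.563 to 0.733) in CONV. The ubiquitin-like modifier Isg15 had 25 UMIs in FLASH, 4 in CONV and 28 in Control cells.

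General endothelial and capillary genes were moderately lower in both irradiated libraries. Over 29 identity and junction genes the median log2 ratio was -0.60 in FLASH (0 higher and 5 lower past 2-fold) and -0.58 in CONV (1 higher and 2 lower). The count in CONV is near the share of 6.19% lower over all genes. Inside the subtypes the median was 0.01 over 13 measured genes in aerocyte-like FLASH cells and -0.04 over 20 in general capillary-like CONV cells. The CONV value rests on 4 cells. The medians of aerocyte-like CONV and general capillary-like FLASH cells are not reported here. In venous-like cells the median over 13 genes was -0.90 in FLASH and -0.68 in CONV. The transcription factors Sox17 and Gata2 were lower in both, Tek, Sox18 and Ece1 were lower in FLASH, and the junction gene Jam2 was higher in CONV, of which Gata2, Sox18, Ece1 and Jam2 were named after their values were seen. Cldn5, the main tight junction claudin of endothelium, had 3217 CPM in FLASH, 2879.8 CPM in CONV and 4517 CPM in Control cells, ratios of 0.712 (0.639 to 0.793) in FLASH and 0.637 (0.572 to 0.710) in CONV. Within aerocyte-like cells Cldn5 had 8506 CPM in FLASH, 8282 CPM in CONV and 8168 CPM in Control, ratios of 1.04 (0.841 to 1.28) in FLASH and 1.01 (0.850 to 1.21) in CONV, intervals that hold 1. In venous-like cells it had 1031 CPM in FLASH, 1631 CPM in CONV and 3129.9 CPM in Control, ratios of 0.329 (0.214 to 0.501) in FLASH and 0.521 (0.374 to 0.731) in CONV. The water channel Aqp1 had 1486 CPM in FLASH, 2087 CPM in CONV and 2259 CPM in Control cells, and in FLASH it was at 0.316 (0.147 to 0.603) of Control in aerocyte-like, 0.513 (0.339 to 0.750) in general capillary-like and 0.538 (0.407 to 0.710) in venous-like cells.

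Car4, the carbonic anhydrase that marks aerocytes, had 446 CPM in FLASH, 423 CPM in CONV and 1202 CPM in Control cells, ratios of 0.371 (0.281 to 0.484) in FLASH and 0.352 (0.268 to 0.458) in CONV. Within aerocyte-like cells it had 3172 CPM (2305 to 4258) in FLASH, 2676 CPM (2056 to 3424) in CONV and 5337 CPM (4709.9 to 6023) in Control, ratios of 0.594 (0.422 to 0.820) in FLASH and 0.501 (0.375 to 0.662) in CONV. Car4 was thus lower inside its own cell class too, while in general capillary-like cells it had 402 CPM in FLASH, 462 CPM in CONV and 240.5 CPM in Control. The VEGF receptor Kdr and its co-receptor Nrp1, both also aerocyte markers, were at 0.523 (0.344 to 0.778) and 0.471 (0.353 to 0.621) of Control in FLASH and at 0.596 (0.406 to 0.862) and 0.623 (0.485 to 0.795) in CONV cells. Over 17 VEGF, Notch and angiogenesis genes the median log2 ratio was -0.53 in both comparisons, with 1 higher and 3 lower past 2-fold in FLASH and 0 and 3 in CONV cells. Sema3c and Efnb1 were lower in both, Nrp1 in FLASH and Efnb2 in CONV, and the Notch ligand Dll1 was higher in FLASH, with Efnb1 and Dll1 named after their values were seen.

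Lipid uptake genes of the capillary were lower, with medians of -0.68 in FLASH (0 of 10 higher, 3 lower) and -0.61 in CONV (1 higher, 4 lower). Lpl, Gpihbp1 and Apoe were lower in both and Cd36 in CONV, and Fabp4 was higher in CONV. Without Gpihbp1, which helped to choose the cells, the medians were -0.54 in FLASH (0 of 9 higher, 2 lower) and -0.50 in CONV (1 higher, 3 lower). Lipoprotein lipase, Lpl, had 129 CPM in FLASH, 101 CPM in CONV and 379 CPM in Control cells, ratios of 0.341 (0.199 to 0.558) in FLASH and 0.268 (0.150 to 0.453) in CONV. Inside the general capillary-like class the Lpl ratio was 0.744 (0.390 to 1.32) in FLASH and 0.814 (0.217 to 2.16) in CONV, intervals that hold 1. The fatty acid carrier Cd36 was at 0.564 (0.449 to 0.704) of Control in FLASH and 0.473 (0.373 to 0.595) in CONV. Gpihbp1, which anchors lipoprotein lipase and was among the choosing genes, had 614 CPM in FLASH, 376 CPM in CONV and 1402 CPM in Control cells. Its log2 ratio in FLASH was -0.33 in general capillary-like cells, -0.45 at equal weight and -0.92 after thinning, and in CONV -0.26 in aerocyte-like cells, all under 2-fold. The fatty acid binding gene Fabp4 had 29 UMIs in FLASH, 201 in CONV and 44 in Control cells, and 1 CONV cell held 64 of them. With the 3 subtypes at equal weight its log2 ratio for CONV over Control was -0.22, in place of 2.71. That setting left out the unnamed cluster led by leukocyte genes, of which Fabp4 was a leading gene.

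Apolipoprotein E, Apoe, was at 0.316 (0.247 to 0.40) of Control in FLASH and 0.470 (0.384 to 0.571) in CONV cells, but 1 Control cell held 123 of 418 UMIs and fibroblast-marked barcodes held 3735 to 4471 CPM. With cells that held transcripts of other lineages left out, the log2 ratio of Apoe was 0.19 in FLASH and 0.077 in CONV. Clu, an extracellular chaperone, had 233 CPM in FLASH, 268 CPM in CONV and 740.4 CPM in Control cells, ratios of 0.314 (0.213 to 0.451) in FLASH and 0.362 (0.255 to 0.505) in CONV. Inside the aerocyte-like class Clu had ratios of 0.472 (0.217 to 0.917) in FLASH and 0.361 (0.184 to 0.656) in CONV. Wfdc1, a secreted protease inhibitor, had 4 UMIs in FLASH, 11 in CONV and 40 in Control cells, and its 2-fold call in CONV did not hold with the 3 subtypes at equal weight (log2 ratio 0.11).

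Vcam1 and several venous markers were higher over all cells, beside the higher venous marker level. Of 15 adhesion and activation genes, 3 were higher and 2 lower past 2-fold in FLASH (median log2 ratio 0.19), and 2 were higher and 1 lower in CONV (median -0.02). Vcam1 and Lyve1 were higher in both, Cxcl12 was higher in FLASH, and Il4ra and Podxl, named after their values were seen, were lower, Il4ra in both and Podxl in FLASH. Vcam1, a leukocyte adhesion receptor, had 1363 CPM (1185 to 1560.0) in FLASH, 936 CPM (795 to 1095) in CONV and 416 CPM (338 to 506) in Control cells, ratios of 3.28 (2.57 to 4.20) in FLASH and 2.25 (1.74 to 2.92) in CONV. Within venous-like cells Vcam1 had 4667 CPM (3996 to 5419) in FLASH, 1738 CPM (1411 to 2118) in CONV and 2221 CPM (1614 to 2982) in Control, so it stood above Control in FLASH (2.10, 1.5 to 3.0), while the CONV ratio had an interval that holds 1 (0.782, 0.543 to 1.14). A FLASH cell held 57 of its 211 UMIs in that library. Von Willebrand factor, Vwf, had 976 CPM in FLASH, 1580.0 CPM in CONV and 757 CPM in Control cells, ratios of 1.29 (1.03 to 1.61) in FLASH and 2.09 (1.72 to 2.53) in CONV. Inside the venous-like class its ratios were 0.713 (0.485 to 1.06) in FLASH and 1.15 (0.828 to 1.61) in CONV.

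Several other venous markers were higher over all cells, with ratios nearer to 1 inside the venous-like class or below it. Others were not, since Cpe (0.683), Ephb4 (0.754), Lrg1 (0.809) and Amigo2 (0.906) had ratios under 1 in FLASH and Ephb4 (0.860) in CONV. The noradrenaline transporter Slc6a2 had pooled ratios of 1.83 (1.13 to 2.98) in FLASH and 3.50 (2.32 to 5.38) in CONV, and ratios of 0.635 (0.389 to 1.04) in FLASH and 0.820 (0.539 to 1.27) in CONV inside the venous-like class. The surface ectoenzyme Bst1 had pooled ratios of 4.27 (1.83 to 11.1) in FLASH and 6.99 (3.22 to 17.3) in CONV, and of 1.48 (0.634 to 3.84) in FLASH and 1.36 (0.612 to 3.43) in CONV inside it. The protease Prss23 was at 0.591 (0.458 to 0.764) of Control in FLASH and 0.504 (0.396 to 0.641) in CONV venous-like cells. Lyve1, a hyaluronan receptor best known from lymphatic vessels, had 1505 CPM in FLASH, 1795 CPM in CONV and 566 CPM in Control cells, ratios of 2.66 (2.14 to 3.31) in FLASH and 3.17 (2.58 to 3.91) in CONV. Lyve1 had intervals that hold 1 in venous-like cells (0.937, 0.623 to 1.43, in FLASH and 1.23, 0.859 to 1.81, in CONV) and was higher in general capillary-like FLASH cells (2.59, 1.66 to 3.99).

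Coagulation genes had a median of 0.29 in FLASH (1 of 11 higher, 1 lower) and 0.25 in CONV (2 higher, 0 lower). Over all genes, 4.0% were higher and 5.69% lower in FLASH, and 4.65% higher and 6.19% lower in CONV. Mmrn2, named after its values were seen, was higher in both and Vwf in CONV. Vasoactive genes had a median of -0.51 in FLASH (1 of 15 higher, 2 lower) and -0.43 in CONV (1 higher, 2 lower). Ptgis, the prostacyclin synthase, named after its values were seen, was higher in both, Car4 was lower in both, Ece1 in FLASH and Npr3 in CONV. The natriuretic peptide clearance receptor Npr3 had 24 UMIs in FLASH, 8 in CONV and 67 in Control cells, ratios of 0.556 (0.334 to 0.899) in FLASH and 0.171 (0.0710 to 0.357) in CONV. Inside the general capillary-like class the Npr3 ratio in CONV had an interval that holds 1 (1.47, 0.385 to 4.03). The endothelin receptor Ednrb, also an aerocyte marker, was at 0.586 (0.332 to 0.997) of Control in FLASH and 0.676 (0.403 to 1.11) in CONV cells. Within aerocyte-like cells the Ednrb ratios were 0.664 (0.286 to 1.37) in FLASH and 0.869 (0.488 to 1.49) in CONV.

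Matrix genes had medians of 0.01 in FLASH (1 of 14 higher, 2 lower) and 0.25 in CONV (2 higher, 1 lower). Sparcl1 was higher in both and Igfbp5 in CONV (log2 ratio 1.44, but 0.17 in venous-like cells and at equal weight), while Ctgf was lower in both and Igfbp3 in FLASH, of which Sparcl1, Ctgf and Igfbp3 were named after their values were seen. Igfbp3 was also among the leading genes of the unnamed cluster led by fibroblast genes, and the part of those cells in its ratio was not tested. The metalloproteinase inhibitor Timp3 had 1085 CPM in FLASH, 1169 CPM in CONV and 591 CPM in Control cells, ratios of 1.84 (1.46 to 2.31) in FLASH and 1.98 (1.59 to 2.47) in CONV. In venous-like cells Timp3 had 2306 CPM in FLASH, 1933 CPM in CONV and 858 CPM in Control, ratios of 2.69 (1.58 to 4.83) in FLASH and 2.25 (1.34 to 4.01) in CONV. In general capillary-like FLASH cells its ratio was 2.73 (1.61 to 4.54), so Timp3 stood higher inside 2 subtypes. Matrix Gla protein, Mgp, an arterial marker, had a ratio of 1.98 (1.72 to 2.28) in FLASH and in CONV. Of 10 TGF-beta and BMP genes (median log2 ratio -0.41 in FLASH and -0.26 in CONV), 1 was higher and 0 lower past 2-fold in each comparison. It was Tgfb1, named after its values were seen, with 31 UMIs in FLASH, 43 in CONV and 17 in Control cells.

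Immediate early genes, which respond to dissociation as well as to signalling, had medians of -0.53 in FLASH (1 of 18 higher, 3 lower) and -0.62 in CONV (2 higher, 3 lower). Cebpb was higher in both and Zfp36l1 in CONV. Ier2 was lower in both, Nr4a1 and Dusp6 in FLASH and Jun and Junb in CONV. Of these, Cebpb, Zfp36l1, Nr4a1 and Dusp6 were named after their values were seen. Cebpb was also among the leading genes of the unnamed cluster led by leukocyte genes, which held 19 FLASH, 10 CONV and 2 Control cells. The part of those cells in its ratios was not tested. Jun had 1434 CPM in FLASH, 1175 CPM in CONV and 2496 CPM in Control cells, ratios of 0.575 (0.490 to 0.671) in FLASH and 0.471 (0.399 to 0.554) in CONV. Ier2 had ratios of 0.410 (0.326 to 0.511) in FLASH and 0.363 (0.287 to 0.455) in CONV. In the general capillary-like class, of which a cluster was led by such genes, the median over 13 measured early genes was 0.21 in FLASH and -0.98 in CONV, beside 0.00 in FLASH and 0.03 in CONV over all genes measured in that class. Shear-responsive Klf genes had medians of -0.07 in FLASH and -0.08 in CONV and 0 of 9 past 2-fold in either direction. Klf2, the main flow-induced factor, had 2571 CPM in FLASH, 2725 CPM in CONV and 3207 CPM in Control cells.

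Of the clock genes 2 were measured, and Dbp, a transcription factor driven by the circadian clock, had 246 CPM (174 to 337) in FLASH, 203 CPM (140.4 to 283) in CONV and 20.8 CPM (6.75 to 48.5) in Control cells. The Control value rests on 5 UMIs. Its ratios were 11.8 (4.64 to 38.4) in FLASH and 9.75 (3.79 to 31.9) in CONV, while Bhlhe40, a clock-linked repressor, had log2 ratios of -0.36 in FLASH and -0.16 in CONV. Dbp was also higher in fibroblast-marked barcodes, at 339 CPM in FLASH, 342 CPM in CONV and 142 CPM in Control, ratios of 2.39 (1.85 to 3.11) in FLASH and 2.41 (1.90 to 3.10) in CONV. The hour of sampling is not known here, and its part in this was not tested. Oxidative stress and NRF2 genes had medians of 0.32 in FLASH (3 of 13 higher, 0 lower) and 0.40 in CONV (2 higher, 0 lower). Gpx3 was among them in both, beside Gpx1 and Mt1, named after their values were seen, in FLASH and Prdx6 in CONV. Gpx3, a plasma glutathione peroxidase, was 3.39 (2.21 to 5.28) times as high in FLASH and 2.13 (1.34 to 3.42) times in CONV as in Control cells, but 1 FLASH cell held 29 of 72 UMIs and fibroblast-marked barcodes held 4242 to 4670.0 CPM. With cells holding transcripts of other lineages left out, the log2 ratio of Gpx3 in FLASH was 0.50.

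Heat shock chaperones had a median log2 ratio of 0.22 in FLASH and 0.20 in CONV (1 of 9, Hspe1, and 0 of 9 higher past 2-fold), and glucocorticoid-induced genes of -0.35 in FLASH and -0.28 in CONV (1 of 6, Mt1, and 0 of 6 higher), Hspe1 and Mt1 being named after their values were seen. Among 7 apoptosis genes 1 was higher and 1 lower past 2-fold in FLASH and 2 and 0 in CONV, and among 9 senescence-linked genes 3 were higher and 2 lower in FLASH and 3 and 0 in CONV. Among 4 measured mitotic genes Stmn1 and Hmgb2 were lower in both comparisons with Control. Stmn1, a microtubule regulator, had 32 UMIs in FLASH, 20 in CONV and 130 in Control cells, of which 1 Control cell held 38. With doublets removed its log2 ratio in FLASH was -0.90. Hmgb2, a chromatin protein of dividing cells, had 6 UMIs in FLASH, 15 in CONV and 66 in Control cells, and 1 Control cell held 39 of the 66. Without that cell its log2 ratio in CONV was -0.37, in place of -1.62, and the call was lost. The remaining kept barcodes held 225 CPM of Hmgb2 in FLASH, 244 CPM in CONV and 1723 CPM in Control. Top2a, a marker of dividing cells, had 0 UMIs in FLASH, 0 in CONV and 9 in Control cells, 8 of them in 1 cell.

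**Figure D5:**
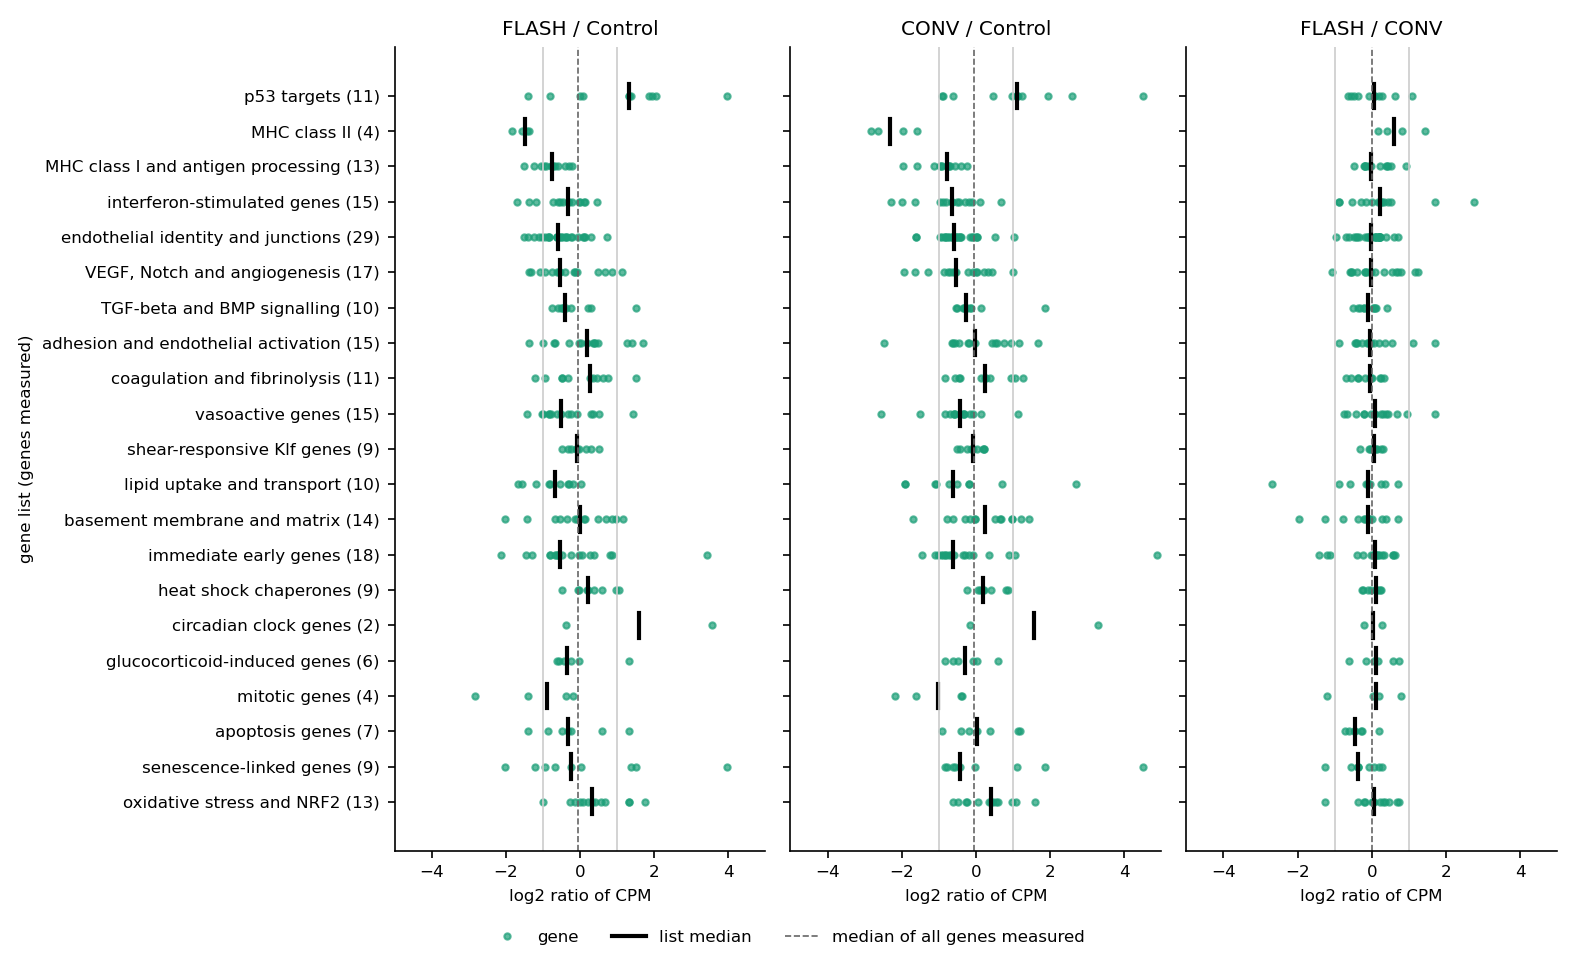
Log2 ratio of each measured gene (points) of 21 gene lists for FLASH over Control, CONV over Control and FLASH over CONV, with the list median as a black bar, the median over all genes as a dashed line and 2-fold as grey lines. The p53 list lies to the right and the MHC class II and class I lists to the left in both comparisons with Control, and for FLASH over CONV the p53 and class I lists centre near 0 while the class II list has a median of 0.61.

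Over all cells, fewer genes stood past 2-fold between the 2 irradiated libraries. Of 2001 genes with a ratio, 42 (2.10%) were more than 2-fold higher and 45 (2.25%) more than 2-fold lower in FLASH than in CONV cells, and the median log2 ratio was 0.01. Inside the general capillary-like class this order was not seen. Of 449 genes with a ratio there, 57 were higher and 39 lower for FLASH over CONV. For FLASH over Control 19 of 463 were higher and 32 lower, and for CONV over Control 39 of 455 were higher and 60 lower. Both comparisons with CONV rest on 4 CONV cells, and fewer genes were measured than over all cells. These counts therefore cannot decide whether the pooled order holds inside the class. At equal weight 77 were higher for FLASH over CONV and 61 for CONV over Control, out of a number of genes not given here. That setting includes the same 4 CONV cells. Cxcl12, a chemokine of arterial endothelium, stood highest in FLASH, and Fabp4 stood lowest. Of the 11 p53 targets, 1 was higher and 0 lower past 2-fold, with a median of 0.06. That gene was Ei24 (2.11, 1.16 to 3.95), whose log2 ratio was 0.20 after thinning, in place of 1.08. Cdkn1a had a ratio of 1.20 (1.04 to 1.40), Phlda3 of 0.951 (0.745 to 1.21), Bax of 1.15 (0.882 to 1.5) and Rps27l of 1.06 (0.843 to 1.32).

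Class II genes were less low in FLASH than in CONV cells. The median log2 ratio of the 4 was 0.61 for FLASH over CONV, and H2-Eb1 was past 2-fold. Cd74 had a ratio of 1.76 (1.28 to 2.42), with 1 FLASH cell holding 41 of 107 UMIs, and H2-Eb1 had a ratio of 2.71 (1.26 to 6.32), while H2-Aa (1.12, 0.676 to 1.84) and H2-Ab1 (1.33, 0.805 to 2.21) had intervals that hold 1. Of class I, B2m was higher in FLASH (1.32, 1.16 to 1.5) and H2-D1 had an interval that holds 1 (0.936, 0.823 to 1.06). In aerocyte-like cells B2m ran the other way, at 0.622 (0.415 to 0.914) of CONV. No gene of the class I list was past 2-fold, and its median was -0.01. Among the 15 interferon-stimulated genes Isg15 and Xaf1 were higher past 2-fold and 0 lower, with a median of 0.22.

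Cxcl12 had 491 CPM (387 to 615) in FLASH, 149 CPM (96.5 to 220.0) in CONV and 204 CPM (151 to 269) in Control cells, a ratio of 3.29 (2.07 to 5.4) for FLASH over CONV. In arterial-like cells, a cluster that it helped to define, it had 55 of its 76 UMIs in FLASH and 7 of 25 in CONV. Vcam1 was higher in FLASH than in CONV venous-like cells (2.69, 2.08 to 3.48), and Vwf was lower (0.622, 0.459 to 0.834). The fatty acid elongase Elovl5 had 35 UMIs in FLASH, 13 in CONV and 52 in Control cells, a ratio of 2.92 (1.51 to 6.01). The cytokine feedback inhibitor Socs3 had 504 CPM in FLASH, 262 CPM in CONV and 516 CPM in Control cells, a ratio of 1.92 (1.31 to 2.85). In general capillary-like cells it had 30 UMIs in FLASH, 1 in CONV and 95 in Control, and early genes in that class had a median log2 ratio of 1.30 for FLASH over CONV. This comparison rests on 18 FLASH and 4 CONV cells that come mostly from different clusters.

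Genes lower in FLASH than in CONV cells were led by Fabp4 (0.156, 0.102 to 0.231), whose CONV UMIs lay in 15 cells. Its log2 ratio was 0.15 in venous-like cells and at equal weight and -0.38 with the named subtypes only, in place of -2.68. The growth factor binding protein Igfbp5 had 8 UMIs in FLASH, 34 in CONV and 18 in Control cells, a ratio of 0.255 (0.102 to 0.561), and 0.287 (0.0981 to 0.696) inside the venous-like class. The metalloproteinase Adamts1 had 11 UMIs in FLASH, 37 in CONV and 32 in Control cells, and 1 CONV cell held 10 of the 37. With cells holding transcripts of other lineages left out its log2 ratio was -0.39, in place of -1.63. The sorting nexin Snx21 had 9 UMIs in FLASH, 32 in CONV and 32 in Control cells. The peroxidase Prdx6 had 162 CPM in FLASH, 388 CPM in CONV and 129 CPM in Control cells, a ratio of 0.417 (0.252 to 0.670), but with the named subtypes only its log2 ratio was 0.075, in place of -1.26. Septin 7, Sept7 (2.00, 1.29 to 3.16), Tbca, a tubulin folding cofactor (1.96, 1.32 to 2.94), and S100a1, a calcium-binding protein (2.33, 1.34 to 4.18), completed the 6 that ranked highest in FLASH.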

How the data were processed

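Single-cell RNA libraries of mouse lung, 1 per group, were used. The deposited files hold UMI counts per gene and barcode, as the authors made them. Cell Ranger 2.0 and the mm10 build are named in the submitters' processing notes, and 0 columns of per-sample values were left unused. From these counts, barcodes were kept and endothelial cells chosen as the report states, and their counts were summed per library and divided by their total to give CPM, with no pseudocount for ratios and a floor of 3 UMIs where a library was at 0. A gene was measured with at least 50 UMIs over the 3 libraries and called at a CPM ratio of 2 or 0.5. Cells were clustered on 1000 variable genes, 15 principal components and 10 neighbours at Leiden resolution 0.6, and clusters were named from marker lists. Doublets were kept and removed in an alternative, at 0.8% per 1000 barcodes by Scrublet score, which took 46 FLASH, 50 CONV and 25 Control barcodes, among them 5 FLASH, 2 CONV and 2 Control endothelial cells. Fibroblast-marked barcodes served as a comparison class, and as a measure of RNA outside its cell of origin only for genes that fibroblasts lack.

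The cells, markers and gene lists were chosen with earlier results of these data known. Named genes are the 6 highest and 6 lowest per comparison, ranked by the interval bound nearest 1, given 30 UMIs or more in whichever library was higher, and up to 5 genes per list. Some genes that this rule names are not reported here. Genes outside it are said to have been named after their values were seen, and subtype values were also added after seeing the data. Gene positions are from GENCODE on GRCm38 and promoter sequences from RefSeq on GRCm38.p6. Since 3′ reads lie near the end of a transcript, overlapping genes and near-identical copies can share counts. The steps were tested on simulated counts. Intervals came from scipy 1.17.1, clusters from scanpy 1.11.5 with igraph 0.11.9, tables from pandas 2.3.3 and numpy 2.4.6 and figures from matplotlib 3.10.9, under Python 3.11.15.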

Additional observations from a re-analysis of the deposited data

How the results depend on the processing

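No paired analysis was possible because each group has 1 library. Each result was recomputed with stricter and looser choices of cells, other scalings, thinning, other UMI minimums, 1.5-fold in place of 2-fold, doublets or cells with transcripts of other lineages left out and the largest subtype (general capillary-like) alone. Named subtypes only, 3 subtypes at equal weight, and aerocyte-like or venous-like cells alone were added after seeing the data. Of 129 values for shares and counts of genes 86 stayed within their limits and 43 did not. Of 1160 list medians 58 moved and 0 turned, and of 8196 values for named genes 949 moved and 32 turned. Only a main log2 ratio of at least 1 in size could count as turned. Most list medians were smaller than that, so a change of their sign is not among these counts. With the cell holding most UMIs of a gene left out of 1 library, also added later, 5 of 38 named genes lost their 2-fold call in FLASH over Control, 9 of 46 in CONV over Control and 4 of 18 in FLASH over CONV. The cause was not tested, except that fewer or more genes enter at another UMI minimum and fewer cells in a subtype.

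The share of kept barcodes was 2.92% in FLASH and 2.34% in CONV with at least 8 UMIs over 4 genes, and in CONV 2.42% without cells holding other lineages' transcripts and 2.38% after thinning. With at least 25, 100 and 1 UMIs, genes past 2-fold numbered 224, 28 and 763 higher and 330, 44 and 1237 lower in FLASH over Control, 246, 34 and 857 higher and 317, 50 and 1250 lower in CONV over Control, and 183, 10 and 784 higher and 182, 8 and 820 lower in FLASH over CONV. At 1.5-fold they numbered 244 higher and 343 lower, 271 and 345, and 193 and 191, in the same order of comparisons. In the largest subtype they numbered 19 higher and 32 lower of 463 in FLASH over Control and 39 and 60 of 455 in CONV over Control. After thinning, 58 were lower in FLASH over Control, 61 higher and 62 lower in CONV over Control, and 17 higher and 16 lower in FLASH over CONV. At equal weight, 63 were lower in FLASH over Control, 61 higher and 79 lower in CONV over Control, and 77 higher in FLASH over CONV. With at least 3 UMIs over 2 genes, 230 were lower in CONV over Control and 85 higher in FLASH over CONV.

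Log2 ratios that turned in general capillary-like cells were those to Control of Car4 (0.74 in FLASH, 0.94 in CONV) and Pmp22 (0.080 in FLASH), and in CONV of Cadm1 (0.16), Gja4 (0.24), Hilpda (0.19), Npr3 (0.56), Prx (0.41) and Wfdc1 (0.11). In venous-like cells they were Lyve1 (-0.094) and Sema3c (0.35) in FLASH over Control and Apoe (0.49), Cd36 (0.11), Csrp2 (-0.080), Fabp4 (-0.22), Slc6a2 (-0.29) and Vcam1 (-0.35) in CONV over Control, and Fabp4 (0.15) in FLASH over CONV, and in aerocyte-like cells Stmn1 (0.058) in FLASH over Control. At equal weight they were Apoe (1.38), Fabp4 (-0.22), Gja4 (0.17), Vcam1 (-0.37) and Wfdc1 (0.11) in CONV over Control and Fabp4 (0.15), Npr3 (-0.41) and Prdx6 (0.71) in FLASH over CONV. With named subtypes only they were Apoe (2.12 in FLASH and 2.63 in CONV over Control) and Prdx6 (0.075 in FLASH over CONV), and without cells holding other lineages' transcripts Apoe (0.19 in FLASH and 0.077 in CONV over Control). With 1401 to 2094 UMIs in the median cell, genes under about 50 UMIs could not be compared.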
